A study of Homo sapiens with 6 samples.

Results

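The genes described here encode ERBB receptors and their EGF-type ligands, in MDA-MB-231 cells that received an siRNA against LSD1 or a control siRNA. The set was defined by symbol and holds 10 genes: the ligand genes EREG, AREG, HBEGF, TGFA, BTC, EGF and NRG1, and the receptor genes EGFR, ERBB2 and ERBB3. All probe sets that the platform annotation assigns to exactly 1 of these symbols were taken, which gave 35 of the 54675 probe sets on the array. These 35 cover 9 of the 10 genes, of the 19775 genes that have such a probe set. AREG, the amphiregulin gene, has no such probe set and was not analysed here.

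ERBB receptors are membrane tyrosine kinases that form dimers after a ligand binds, and they signal mainly through the RAS-ERK and PI3K-AKT cascades. EGF-type ligands are made as membrane-anchored precursors, and proteases of the ADAM family release the soluble growth factor. EREG, HBEGF, TGFA, BTC and EGF encode ligands of the EGF receptor, some of them also bind ERBB4, and NRG1 encodes a neuregulin that binds ERBB3 and ERBB4. ERBB2 has no known soluble ligand and acts as a dimer partner, and ERBB3 has little kinase activity of its own. Basal-like breast cancer cells often carry high EGFR expression.

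MDA-MB-231 is an estrogen receptor-negative human breast cancer cell line. In the LSD1 siRNA group the cells were transfected with an siRNA against LSD1, a histone demethylase encoded by KDM1A, and in the control siRNA group with a control siRNA. The treatment lasted 6 days with 2 rounds of transfection, and each group has 3 biological replicates with 1 array each. The study addresses how expression changes under LSD1 depletion. The cells are 1 line and no siRNA sequence is given, so effects of LSD1 loss and other effects of the siRNA cannot be told apart. Fewer cells with a transcript and less of it per cell cannot be told apart either.

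KDM1A, measured by 1 probe set, had signals of 291, 184 and 228 on the LSD1 siRNA arrays, against 2540, 2493 and 2295 on the control siRNA arrays. Its LSD1 siRNA mean was 9.58% of the control mean, a log2 change of -3.32 (limma adjusted p = 1.46e-08). The trimmed mean signal was 500.1 on every array, and correlations of log2 values over all probe sets were 0.979 to 0.980 within the LSD1 siRNA group, 0.976 to 0.978 within the control siRNA group and 0.966 to 0.972 between groups. The ACTB 3' to 5' signal ratio was 1.33 to 1.39 on the LSD1 siRNA arrays, against 1.74 on control siRNA array 1 and 1.43 and 1.33 on the other control arrays. Without control array 1 the 7 member genes called below kept their direction and their call. Of the 5 genes fixed as present in this line, VIM, CD44, AXL, MSN and KRT18, the group means were 12146 or higher in both groups, and MSN was higher and KRT18 lower with LSD1 siRNA. Of the 5 fixed as low or absent, ESR1, PGR, CDH1 and KRT20 had group means of at most 163, while EPCAM had 1644 with LSD1 siRNA and 1658 with control siRNA, against its place in that list. None of the 5 leukocyte markers and 4 fibroblast markers tested passed in limma, and in each list the arrays of the groups lay apart for 1 gene: CD2, a T cell marker, was at 58.5 with LSD1 siRNA and 32.2 with control siRNA (limma unadjusted p = 0.0492), and LUM, below the filter, was at 95.2 with LSD1 siRNA and 1.90 with control siRNA. Summed leukocyte signals were 256 to 419 with LSD1 siRNA and 313 to 345 with control siRNA, and fibroblast sums were 608 to 808 with LSD1 siRNA and 551 to 676 with control siRNA. CD163 was near 0, at 4.23 with LSD1 siRNA and 4.78 with control siRNA. The part of other cells in the results was not tested.

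EREG, HBEGF, TGFA and BTC, 4 of the 5 genes of EGF receptor ligands measured, were higher in cells with LSD1 siRNA, and the neuregulin gene NRG1 was lower. Among the receptor genes ERBB3 was higher, EGFR was slightly lower and ERBB2 did not pass the test. Tests used limma on log2(signal + 15) with Benjamini-Hochberg adjustment over all genes tested, with 1 probe set per gene (the brightest, avoiding cross-hybridising x sets where possible). All 9 measured member genes passed the filter on dim signals, a mean signal of about 28.0. At an adjusted p of at most 0.05, 5 of the 9 were higher and 2 were lower, which is 77.8% of them, while 41.0% of all 13822 genes tested were called (19.8% higher and 21.3% lower). By role, 4 of the 6 ligand genes were higher and 1 was lower, and 1 of the 3 receptor genes was higher and 1 lower. The median log2 change was 0.61 over the 9 genes and -0.02 over all genes tested. The 7 called genes, 5 higher and 2 lower, had no overlap between LSD1 siRNA and control siRNA arrays, as had 50.4% of all genes tested (24.2% higher and 26.2% lower). With 3 arrays against 3, an exact two-sided permutation test of a single gene cannot give a p below 0.1, which is the value of each of these 7 genes.

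**Figure D1:**
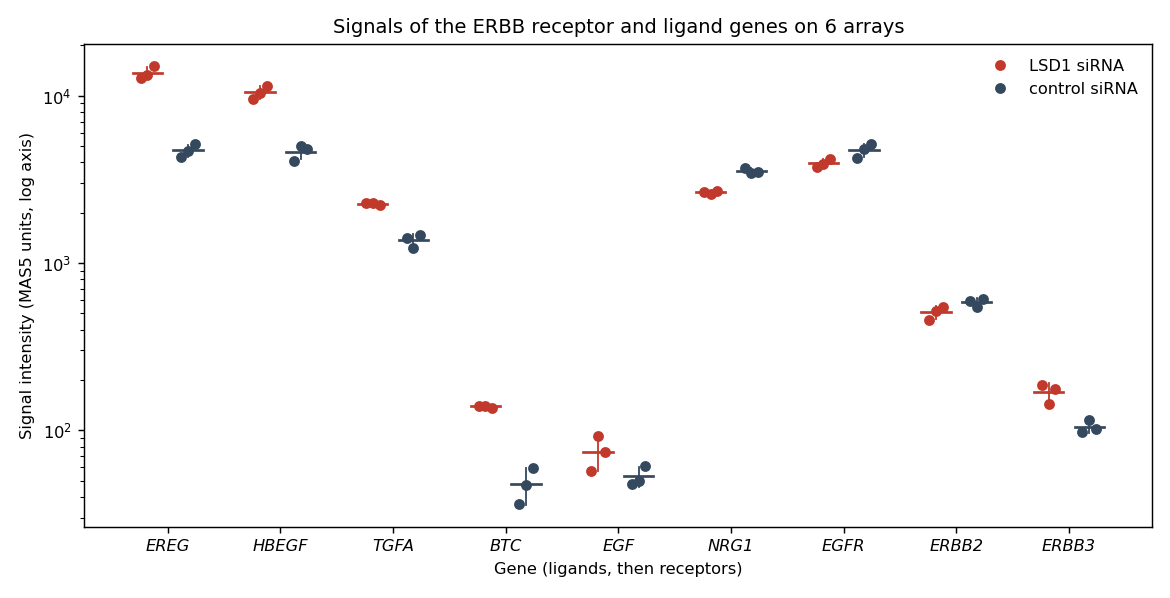
Signal intensity (log axis) of the probe set used for each of the 9 genes, with 3 LSD1 siRNA arrays left of 3 control siRNA arrays; points are arrays, horizontal lines group means and vertical lines 1 SD. EREG, HBEGF, TGFA, BTC and ERBB3 lay higher on every LSD1 siRNA array than on any control array, NRG1 and EGFR lay lower, and the arrays of EGF and ERBB2 overlapped.

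EREG, which encodes epiregulin, was higher on both of its probe sets. Its signals were 12822, 13244 and 15076 on the LSD1 siRNA arrays, against 4322, 4701 and 5117 on the control siRNA arrays. Every LSD1 siRNA array was above every control array, and the ratio of means was 2.91. The difference came to 1.54 ± 0.08 log2 units (SE, limma adjusted p = 9.33e-08), the 134th highest rise among the 13822 genes. A second, dim EREG probe set, 1569583_at, had 111, 137 and 140 with LSD1 siRNA, against 26.8, 91.0 and 86.0 with control siRNA. In the test over all 27079 probe sets it was higher by 0.91 on the log2 scale (limma adjusted p = 0.0464). Control array 1 was the low one there, and without it the change was 0.47 (limma adjusted p = 0.106). Leaving out any LSD1 siRNA array also ended that call (limma adjusted p = 0.0680 to 0.123). On log2 values minus each gene's control mean, the genes closest to EREG over the 6 arrays were CSGALNACT2, QPCT and CLDN1. Their root mean square distances were 0.05, 0.06 and 0.08 log2 units. This distance compares changes and not signal levels, and the changes of the 3 genes were 1.57, 1.62 and 1.45.

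HBEGF, the gene of heparin-binding EGF-like growth factor, was higher on 2 bright probe sets. Probe set 203821_at had signals of 9617, 10327 and 11463 with LSD1 siRNA, against 4098, 4994 and 4823 with control siRNA. Probe set 38037_at had 4858, 5091 and 5138 with LSD1 siRNA, against 2303, 2361 and 2295 with control siRNA. Both groups were tight on both sets and did not overlap. The log2 changes were 1.17 (standard error 0.09) and 1.11 (standard error 0.06), with limma adjusted p values of 1.30e-06 and 1.37e-07 in the probe set test. The changes of these 2 sets differed by 0.06 on the log2 scale, less than the spread between replicates (exact permutation p = 0.7). Of the other HBEGF sets, 244857_at was near the filter and did not pass (-0.23, with a 95% interval of -0.99 to 0.53), and 222076_at was below it. The mean of all 4 sets gave a log2 change of 0.42 (limma adjusted p = 0.0113), since it weights the dim sets equally.

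TGFA, which encodes transforming growth factor alpha, had signals of 2272, 2272 and 2230 with LSD1 siRNA, against 1413, 1234 and 1476 with control siRNA on probe set 205016_at. The LSD1 siRNA arrays were nearly equal and all above the control arrays. The difference came to 0.71 ± 0.07 log2 units (SE, limma adjusted p = 1.57e-05). The other TGFA sets did not pass: 205015_s_at was at 0.51 (95% interval -0.01 to 1.04), and 211258_s_at had means of 225 with LSD1 siRNA and 221 with control siRNA and an interval of -0.48 to 0.48. With the mean of the 3 sets the change was 0.41 (limma adjusted p = 0.0289).

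BTC, the betacellulin gene, was higher from a dim signal. Its probe set 241412_at had 140, 140 and 137 with LSD1 siRNA, against 36.1, 47.2 and 59.9 with control siRNA. The control values lie around the median signal of an array, which was 51.3 to 54.2 over the 6 arrays. The difference came to 1.31 ± 0.22 log2 units (SE, limma adjusted p = 5.19e-04). The order of EREG and BTC depends on the constant: their ratios of means were both 2.91, and with a constant of 1 BTC was at 1.55 and EREG at 1.54. The other BTC set, 207326_at, had 30.8, 60.5 and 42.3 with LSD1 siRNA, against 25.6, 23.7 and 25.7 with control siRNA. Its arrays did not overlap, but it passed the filter only through the LSD1 siRNA group. Its change of 0.54 did not pass (limma adjusted p = 0.222 in the probe set test). EGF itself did not pass: its single set had 57.0, 92.2 and 74.1 with LSD1 siRNA, against 47.5, 50.1 and 61.5 with control siRNA. The groups overlapped, and the log2 change of 0.38 had a 95% interval of -0.18 to 0.94.

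NRG1, the neuregulin 1 gene, was lower, and its 6 probe sets did not give 1 value. The brightest, 206343_s_at, had 2647, 2571 and 2703 with LSD1 siRNA, against 3708, 3455 and 3524 with control siRNA. Every LSD1 siRNA array was below every control array, and the difference came to -0.43 ± 0.06 log2 units (SE, limma adjusted p = 1.18e-04). Probe set 208241_at was lower as well, with 82.3, 110 and 106 with LSD1 siRNA, against 146, 178 and 167 with control siRNA, a change of -0.65 (limma adjusted p = 0.0150). That call was lost without LSD1 siRNA array 1 or control array 2 (limma adjusted p = 0.0566 and 0.0591). Probe set 206237_s_at overlapped between the groups, at 413, 396 and 427 with LSD1 siRNA and 393, 437 and 387 with control siRNA. Its change was 0.02 with a 95% interval of -0.20 to 0.25. The change of the brightest set was 0.45 below it on the log2 scale, a difference larger than the spread between replicates (exact permutation p = 0.1, the smallest possible). The mean of all 6 sets was at -0.28 and did not pass (limma adjusted p = 0.0608), and the remaining 3 sets ranged from -0.36 to -0.01 with none past the test.

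EGFR, the EGF receptor gene, was lower on 1 of its bright probe sets. Probe set 201983_s_at had 3755, 3918 and 4205 with LSD1 siRNA, against 4259, 4794 and 5143 with control siRNA. The groups did not overlap, but LSD1 siRNA array 3 and control array 1 lay close together. The difference came to -0.25 ± 0.08 log2 units (SE, limma adjusted p = 0.0191), and LSD1 siRNA arrays averaged 83.7% of the control mean. The next brightest set, 224999_at, overlapped, with 3427, 3209 and 3610 with LSD1 siRNA and 4200, 2914 and 3478 with control siRNA, a change of -0.03 (95% interval -0.27 to 0.20). Set 201984_s_at overlapped too, at -0.09 (95% interval -0.25 to 0.07). The difference between the changes of the 2 brightest sets, -0.22, was within the spread between replicates (exact permutation p = 0.4). Leaving out any 1 of 4 arrays (control 2 or 3, LSD1 siRNA 1 or 2) took the call away, with limma adjusted p of 0.0556 to 0.0756, and the mean of all 9 sets was 0.11 (limma adjusted p = 0.528). That mean holds 1565484_x_at, a dim set with the cross-hybridisation suffix, which had 54.0, 60.5 and 53.9 with LSD1 siRNA, against 13.3, 10.2 and 43.3 with control siRNA (log2 change 1.04, limma adjusted p = 0.0456), a call that leaving out any array but control array 3 ended. The other x sets tested, 210984_x_at and 211607_x_at, were at -0.08 and -0.05 and did not pass, nor did 211551_at at 0.22. On log2 values minus each gene's control mean, the genes closest to EGFR were ADGRA3, CNBP and MAP7D3, at distances of 0.03 to 0.04 log2 units.

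ERBB3, which encodes the neuregulin receptor, was higher at low signals. Its brightest set, 226213_at, had 186, 144 and 176 with LSD1 siRNA, against 98.1, 116 and 101 with control siRNA. The groups did not overlap, and the difference came to 0.61 ± 0.17 log2 units (SE, limma adjusted p = 0.0148). Without LSD1 siRNA array 1 or 3 the adjusted p was 0.0639 or 0.0550 in limma. A second set, 202454_s_at, had 87.7, 84.9 and 113 with LSD1 siRNA, against 73.5, 55.7 and 46.7 with control siRNA, and its change of 0.59 did not pass (limma adjusted p = 0.0741). Set 1563253_s_at had means of 92.1 with LSD1 siRNA and 90.8 with control siRNA, set 215638_at was at -0.31 and did not pass, and the mean of the 5 ERBB3 sets was 0.21 (limma adjusted p = 0.422). ERBB2, the gene amplified in HER2-positive breast cancer, had 458, 516 and 548 with LSD1 siRNA, against 589, 543 and 612 with control siRNA on 216836_s_at. LSD1 siRNA array 3 lay above control array 2, and the log2 change of -0.19 had a 95% interval of -0.41 to 0.02 and did not pass. Its other tested set, 210930_s_at, was at -0.05 and did not pass.

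Over the probe set test, 30 of the 35 sets were above the filter, and 8 were higher and 3 lower. The 5 below it were 222076_at of HBEGF, 1565483_at and 211550_at of EGFR, 234354_x_at of ERBB2 and 1563252_at of ERBB3. The dim EGFR set 1565484_x_at passed the filter only through the LSD1 siRNA group, and its call was lost with no filter (limma adjusted p = 0.0781), so 7 higher sets remain without it. The 11 calls, which still count this EGFR set, are 36.7% of those tested. That is near the 34.4% of all 27079 probe sets tested (17.0% higher and 17.4% lower). The median log2 change of the 30 was 0.01, and that of all sets tested was -0.02. Arrays of the groups lay apart for 11 higher and 3 lower sets, as for 46.0% of all sets tested (22.5% higher and 23.5% lower). Of the 11 higher sets, EGFR 1565484_x_at and BTC 207326_at passed the filter only through the LSD1 siRNA group. Among the 17 ligand sets tested 6 were higher and 2 lower. Among the 13 receptor sets 2 were higher, EGFR 1565484_x_at included, and 1 lower. Sets of 1 gene share its transcripts and are not independent. The changes of the 2 brightest sets were compared for 8 genes, and the exact permutation p was 0.1 for NRG1, BTC and ERBB3 and 0.2 to 0.7 for the other 5. After Benjamini-Hochberg adjustment over the 8 none of these exact tests was below 0.267.

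**Figure D2:**
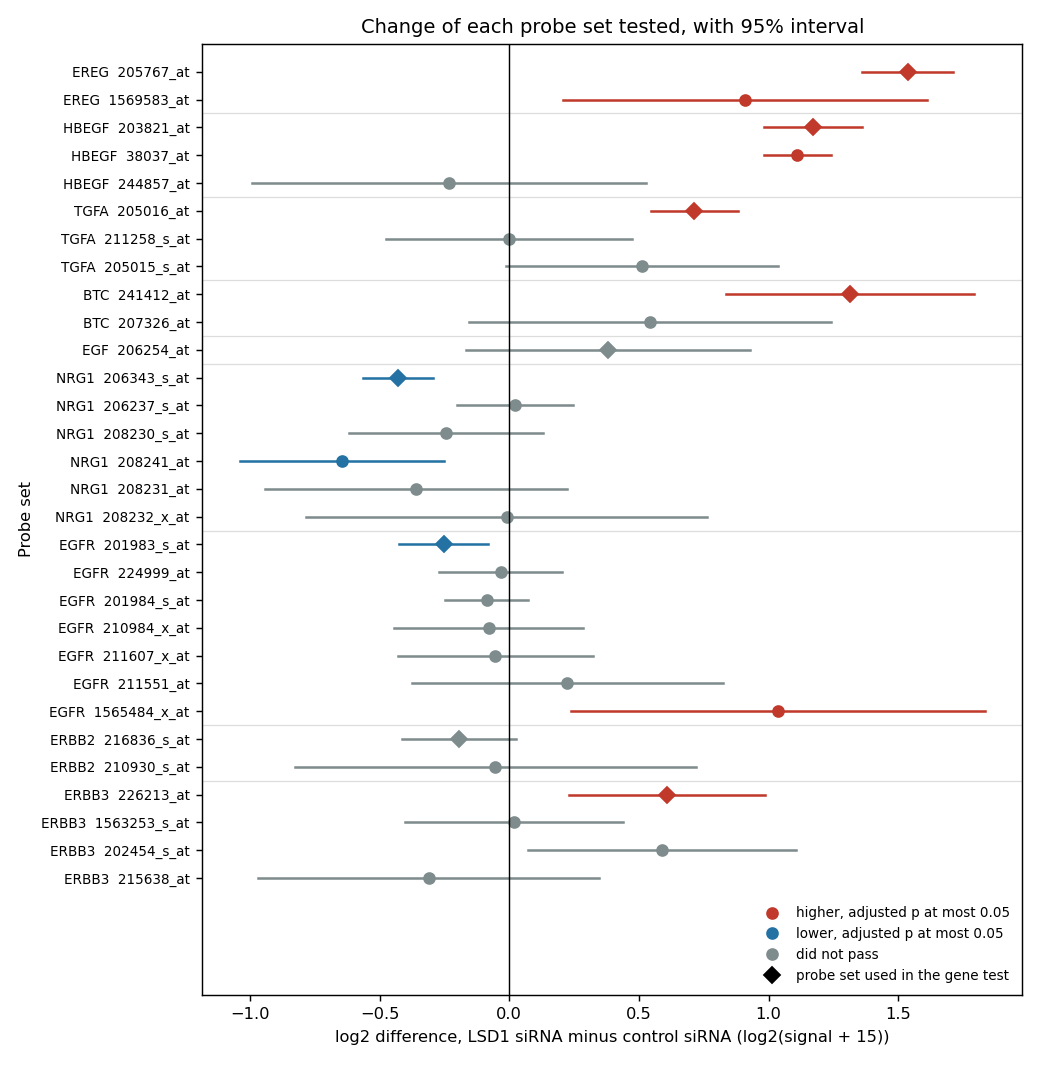
The log2 difference of each of the 30 probe sets tested (LSD1 siRNA minus control siRNA), with its 95% interval from limma; colour gives the call in the probe set test and diamonds mark the set used in the gene test. The other tested sets of EGFR all lie above its gene test set at -0.25, those of ERBB3 all lie below its gene test set at 0.61, and those of NRG1 lie on both sides of -0.43.

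EREG, AREG and BTC are neighbours on chromosome 4, and the measured genes in a small window around them were higher, with calls that depend on the settings for CXCL2, PARM1 and THAP6. In the RefSeq gene order the window of 4 protein-coding genes on each side of the block holds 11 genes, of which 9 have a probe set here, EREG and BTC among them. EREG and BTC, around which the window was drawn, were higher past the threshold, so they add nothing to a count of their neighbours. The other 7 were higher too, beside 19.8% of all genes tested. CXCL2 among them passed the filter only through the LSD1 siRNA group. Without CXCL2, 8 higher genes remain, EREG and BTC included. On one side, CXCL3 and CXCL2, chemokine genes, changed by 4.35 and 1.27, and MTHFD2L, which encodes a mitochondrial folate enzyme, by 0.82. CXCL2 had means of 85.8 with LSD1 siRNA and 28.4 with control siRNA, and lost its call in the unmoderated model (adjusted p = 0.0544). On the other side, PARM1, RCHY1 (a ubiquitin ligase gene), THAP6 and ODAPH were at 0.43, 0.56, 0.52 and 3.37. With the mean of all probe sets THAP6 was at 0.36 and did not pass (limma adjusted p = 0.0593). PARM1 lost its call without any 1 of 4 arrays (control siRNA 1 or 3, LSD1 siRNA 1 or 2), with limma adjusted p of 0.0522 to 0.0883. EPGN and AREG were not analysed here.

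**Figure D3:**
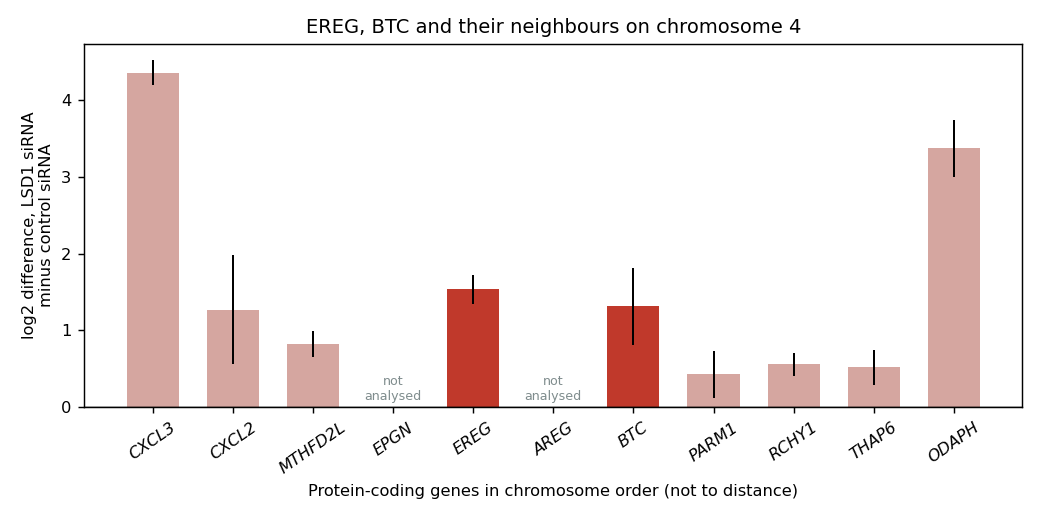
The log2 difference (LSD1 siRNA minus control siRNA) of the protein-coding genes around EREG and BTC, drawn in chromosome order and not to distance; vertical lines are 95% intervals from limma, and the member genes are in the darker colour. All 9 measured genes were above 0, from 0.43 for PARM1 to 4.35 for CXCL3.

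The bases before the start of EREG, HBEGF and BTC, the 3 ligand genes with the highest changes, are shown because all 3 genes were higher. Sequences are from RefSeq (GRCh38.p14), 250 bases ending just before the annotated start, 5′ to 3′ on the gene's strand: chr4:74364895-74365144 on the plus strand, chr5:140346604-140346853 on the minus strand and chr4:74794524-74794773 on the minus strand. Capitals mark matches on either strand to 3 motifs: the letters TATAAA are called a TATA box, the letters TGANTCA an AP-1 site and the letters GGGCGG a GC box.
EREG: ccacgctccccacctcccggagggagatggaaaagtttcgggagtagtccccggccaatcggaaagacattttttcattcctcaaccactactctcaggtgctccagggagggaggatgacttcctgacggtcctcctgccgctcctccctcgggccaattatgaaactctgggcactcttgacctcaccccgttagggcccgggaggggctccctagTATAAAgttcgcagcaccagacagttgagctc
HBEGF: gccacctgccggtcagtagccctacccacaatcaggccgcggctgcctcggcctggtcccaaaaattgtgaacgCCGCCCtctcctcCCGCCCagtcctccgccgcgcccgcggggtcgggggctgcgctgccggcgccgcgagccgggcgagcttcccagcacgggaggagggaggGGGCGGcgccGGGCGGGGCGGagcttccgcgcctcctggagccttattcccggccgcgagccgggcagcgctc
BTC: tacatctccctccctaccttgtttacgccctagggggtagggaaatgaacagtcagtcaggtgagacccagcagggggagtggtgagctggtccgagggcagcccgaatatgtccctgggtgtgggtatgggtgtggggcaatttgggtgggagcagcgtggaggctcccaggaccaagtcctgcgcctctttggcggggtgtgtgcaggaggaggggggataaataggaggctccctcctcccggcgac
EREG holds 1 TATA box, starting 32 bases before the gene's start, and no match to the other motifs. HBEGF holds 5 GC boxes, of which the last 2 overlap, and no TATA box or AP-1 site. BTC holds no match to the 3 motifs in these 250 bases. Over all 35114 promoters of the table, 10.7% hold the TATA box letters, 6.57% the AP-1 letters and 42.6% the GC box letters in the same window. TGFA has 2 entries, 1 with 3 GC boxes and 1 with no match. Of the 10 genes, 8 have an entry, and those without one are NRG1 and ERBB3.

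Of 5 other members of the family, only 1 was tested, and it was not called. ERBB4, the fourth receptor gene, had means of 19.4 with LSD1 siRNA and 38.5 with control siRNA, below the filter, as were NRG3 and NRG4. NRG2 was the gene tested and was at 0.53 (limma adjusted p = 0.259). EPGN has no probe set with its symbol alone and was not analysed.

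Of 11 genes of sheddases and their cofactors, which release ligand precursors, all were tested, and 4 were higher and 1 lower. That is 45.5%, near the 41.0% called among all genes tested, with a median log2 change of 0.26. ADAM17, the main protease that releases TGFA and HBEGF products, had means of 2326 ± 43.0 with LSD1 siRNA and 1612 ± 43.2 with control siRNA (SD, n = 3 each), a log2 change of 0.52 (limma adjusted p = 3.15e-05). ADAM8 was higher by 0.96 and ADAM19 by 1.09. RHBDL2, a rhomboid protease gene, was the fourth, at 1.28. FRMD8, which encodes a stabiliser of the ADAM17 complex, was lower at -0.34, but the mean of its probe sets was 0.33 (limma adjusted p = 0.216). ADAM10, the other main sheddase, was at 0.15 and did not pass (limma adjusted p = 0.0743).

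Genes of the signalling cascades below the receptors moved both ways. Of 12 adaptor genes, 3 were higher and 2 lower (41.7%, beside 41.0% of all genes), with a median of 0.02: SHC1, which links the receptors to RAS, was at 0.52, the RAS activator gene SOS2 at 0.48 and NCK1 at 0.48, and PLCG1, a phospholipase gene, was at -0.31. With the mean of all probe sets SOS2 was at 0.36 and did not pass (limma adjusted p = 0.123). CRKL was at -0.17, and its call was lost without any 1 of 5 arrays (all but control siRNA 3; limma adjusted p = 0.0560 to 0.105). GRB2 was at -0.03 and did not pass. Of 16 genes from RAS to ERK, 9 were tested, and 2 were higher and 1 lower (33.3%, below the 41.0% of all genes), with a median of 0.01. RRAS was at 0.92 and MAP2K1, the MEK1 gene, at 0.30, and HRAS was at -0.60. Of 13 PI3K and AKT genes, 9 were tested, and 2 were higher and 1 lower (33.3%, below the 41.0% of all genes), with a median of 0.17. PIK3CD and PIK3R3 were at 0.34 and 0.40, with adjusted p of 0.0768 and 0.0544 in the unmoderated model, and AKT1 was at -0.40.

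Among feedback inhibitors of receptor signalling, more genes were higher than lower. Of 18 genes, all tested, 8 were higher and 4 lower (66.7%), with a median of 0.26. Of all genes tested 41.0% were called, 19.8% higher and 21.3% lower, so the lower genes of this list are near the share of all genes. ERRFI1, whose product binds the EGF receptor kinase and inhibits it, had means of 16864 ± 891 with LSD1 siRNA and 10850 ± 145 with control siRNA (SD, n = 3 each), a log2 change of 0.63 (limma adjusted p = 8.55e-06). SOCS3, a cytokine signalling inhibitor gene, was at 0.82 and DUSP5, a nuclear ERK phosphatase gene, at 0.75. DUSP6, which encodes the cytoplasmic ERK phosphatase, was at 0.39. SPRED1 was higher at 0.68 (limma adjusted p = 4.63e-05), LRIG3 at 0.48, DUSP1 at 0.38 and SOCS4 at 0.28. SPRY1 was lower at -0.50, SOCS5 at -0.42, LRIG2 at -0.32 and SPRED2 at -0.26. With the mean of all probe sets SOCS5 was at -0.20 (limma adjusted p = 0.0911) and SPRED2 at -0.10 (limma adjusted p = 0.575). SPRY2 (-0.01), SPRY4 (-0.06), DUSP4 (-0.15) and LRIG1 (0.24) did not pass. With the mean of all probe sets DUSP4 passed at -0.16 (limma adjusted p = 0.0364).

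Of 16 genes of receptor ubiquitination and trafficking, 14 were tested, and 7 were higher and none lower (50%, beside 41.0% of all genes called and 19.8% called higher), with a median of 0.15. SH3KBP1, a partner of the ubiquitin ligase CBL, was at 0.67, and the endosomal sorting genes STAM and STAM2 were at 0.50 and 0.59. None was lower at an unadjusted p under 0.05 in limma, and the farthest down, EPN1, an endocytic adaptor gene, had 214, 164 and 10.4 with LSD1 siRNA, against 219, 221 and 274 with control siRNA (limma adjusted p = 0.112). LSD1 siRNA array 3 alone was far below the others. CBL itself was at -0.01 and did not pass (limma adjusted p = 0.968).

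Of 18 genes that respond to ERK activity, all tested and 6 of them also in the feedback list, 5 were higher and 3 lower (44.4%, near the 41.0% of all genes), with a median of -0.03. IER3 was at 0.69, beside DUSP5 and DUSP6. JUN and ETV1 were higher too, both at 0.34 (limma adjusted p = 0.00292 and 0.00232). CCND1, the cyclin D1 gene, had means of 3818 ± 60.3 with LSD1 siRNA and 6237 ± 69.0 with control siRNA (SD, n = 3 each), a log2 change of -0.71 (limma adjusted p = 1.56e-06). FOS was at -0.67, from means of 44.4 with LSD1 siRNA and 79.1 with control siRNA (limma adjusted p = 0.0492), and leaving out any 1 of the 6 arrays ended the call (limma adjusted p = 0.0569 to 0.136). EGR1 (-0.37), FOSL1 (-0.13), ETV4 (-0.19) and ETV5 (-0.13) did not pass. With the mean of all probe sets EGR1 at -0.47 and ETV4 at -0.29 passed (limma adjusted p = 0.0183 and 0.0206).

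**Figure D4:**
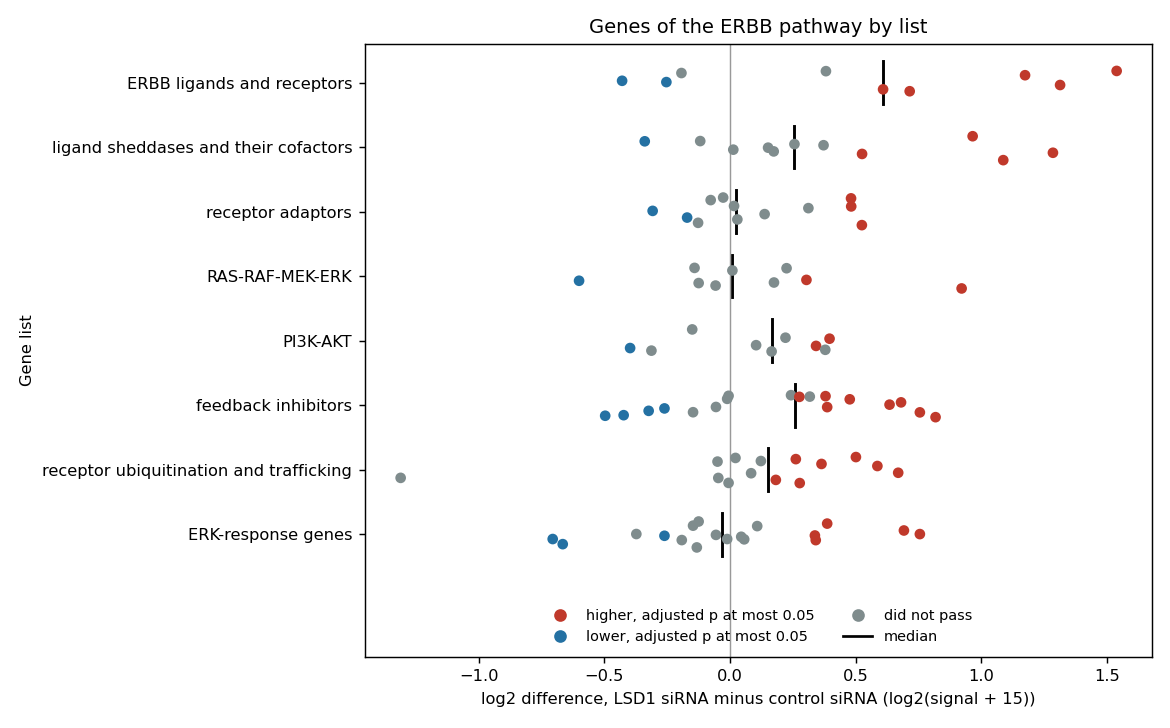
The log2 difference (LSD1 siRNA minus control siRNA) of each gene tested in the set and in 7 pathway lists; each point is a gene, colour gives its limma call over all genes tested, and black lines are list medians. The set's median is 0.61, and those of the lists run from -0.03 for ERK-response genes to 0.26 for sheddases and feedback inhibitors.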

How the data were processed

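RNA of 6 samples was measured on Affymetrix arrays from 2.5 ug of total RNA. The deposited table holds intensity values on a linear scale for 54675 probe sets. The tools named in the submitters' processing notes are MAS5, GCOS and Affymetrix Expression Console 1.1, with no role given. The deposited intensity values have a common trimmed mean, so they were already scaled, and a difference in total RNA per cell is removed. They carry no detection calls, and arrays have no read depth: their number limits the precision.

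Probe sets were named through GEO's annotation of the platform, with identifiers looked up in RefSeq for symbols and gene order. Of the probe sets, 41091 have 1 symbol, 1801 several and 11721 none listed, beside 62 controls, and 41037 of the first matched. Values were log2(signal + 15), where 15 is close to the 25th percentile of all signals (14.5), and features whose mean log2 value exceeded the 40th percentile over the array were tested. A change on this scale understates that of dim genes. The 2 groups were fitted in limma 3.58.1 under R 4.3.3 (intensity trend, no covariate, two-sided), over genes and over probe sets. On simulated data the fit recovered 32% of 50 genes changed 1.25-fold and 64% at 1.5-fold. At 2-fold it recovered 80%, and at 3-fold 96%. The simulation used normal noise with the fit's own variances and a far smaller share of changed genes than was called here. Recovery in the real data can differ. The unmoderated model is an ordinary linear model per gene on the same values. The median standard error was 0.11.

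The members, the pathway lists, the marker lists and the tests were chosen with earlier results of these data known. Named genes are all members, KDM1A, up to 3 per list and direction with the smallest p, and 16 fixed pathway genes. Also named are the neighbours of EREG, AREG and BTC, and the 3 genes nearest to EREG and to EGFR in log2 values minus the control mean. CD2, LUM, CD163, EPCAM, CBL, EPN1, NRG2, NRG3, NRG4, RHBDL2, SPRED1, LRIG2, LRIG3, DUSP1, SOCS4, JUN and ETV1 were named after their values were seen. For these genes the alternatives described below were not run. Replicate numbers are shared by the groups, but deviations of same-numbered arrays correlated at -0.01 to 0.02, so no pairing was used. Alternatives covered the constant, the filter, the normalization, the variance model, averaging a gene's probe sets, a replicate block and leaving out each array. Figures were drawn with matplotlib 3.10.9.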

Additional observations from a re-analysis of the deposited data

How the results depend on the processing

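EREG, HBEGF, TGFA and BTC were higher with LSD1 siRNA, past the threshold, under every alternative in which they were tested (BTC was below the filter at the 60th percentile). The number of all genes called ranged from 4255 to 5730. The number of lower member genes was 1 when the intensity trend was dropped, 1 without moderation and 0 with the mean of all probe sets, against 2, and 1 to 2 without single arrays. EGFR reversed to 0.11 with the mean of all probe sets and FRMD8 to 0.33, and the cause was not tested. The number of higher member probe sets was 5 with the filter at the 60th percentile, where dim sets are not tested, and 5 to 8 without single arrays, and that of lower ones 1 to 3. With the replicate block 5679 genes passed and member genes kept 5 higher and 2 lower, while FOS (adjusted p = 0.0698) and EGFR 1565484_x_at (adjusted p = 0.05001) lost their calls. The block changed no other call of a member set or of a named gene for which the alternatives were run. TGFA 211258_s_at was at 0.0041 with a constant of 60 and 0.0105 after median centring. Uncalled values changed sign without single arrays, over ranges of -0.16 to 0.26 for TGFA 211258_s_at, -0.0255 to 0.0603 for ERBB3 1563253_s_at, -0.00867 to 0.0757 for NRG1 206237_s_at, -0.25 to 0.26 for NRG1 208232_x_at, -0.36 to 0.19 for ERBB2 210930_s_at, -0.19 to 0.10 for EGFR 210984_x_at, -0.21 to 0.0636 for EGFR 211607_x_at, -0.16 to 0.10 for EGFR 224999_at, -0.0572 to 0.0021 for GRB2 and -0.0405 to 0.0374 for SPRY2. Some other named genes that did not pass did so under an alternative: ADAM10 after quantile normalization (adjusted p = 0.0499), ETV4 and DUSP4 without moderation (0.0237 and 0.0377), and EGR1, FOSL1 and LRIG1 without 1 array (0.0269 to 0.0322). For the 52 other named genes the alternatives were added after seeing the data: 770 of 830 values kept direction and call. Dim sets such as those of BTC, EGF and ERBB3 limit what these arrays can show.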
